A study of Homo sapiens with 12 samples.

Results

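PHOX2A, HAND1, HAND2, GATA2, GATA3, ISL1, TBX2 and TFAP2B are 8 transcription factors of the core regulatory circuitry of neuroblastoma, and their RNA levels were followed here in cells depleted of the RNA-binding protein IGF2BP1. They were taken by gene symbol, and each of the 8 had a row among the 58174 genes of both deposited tables, of which 8 passed the filter on low values in BE(2)-C and 2 in Hep-G2. BE(2)-C is a neuroblastoma line, and Hep-G2, a liver cancer line described as a hepatoblastoma in the study, is given beside it as a line of another lineage. Cells of both lines received either a control siRNA (siC) or an siRNA pool against IGF2BP1 (siI1), the dose being higher in BE(2)-C, and poly-A RNA was sequenced 72 h later from 3 libraries of each of the 4 groups. Reads counted on genes ranged from 12852988 to 15721210 per library in BE(2)-C and from 13398903 to 15176939 in Hep-G2. The study's methods call the 3 libraries of a group biological replicates, and the labels do not add whether they came from separate cultures. The p-values measure the spread between these libraries. Each group is 1 established line, and the libraries are from bulk RNA, in which fewer cells that express a gene and less RNA per cell cannot be told apart.

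In core regulatory circuitry, a small set of transcription factors bind the enhancers of their own genes and of one another's genes, and so hold a cell in its identity. In neuroblastoma of the adrenergic state these factors are those of the developing sympathetic nervous system. They belong to several families: PHOX2A and ISL1 carry homeodomains, HAND1 and HAND2 are basic helix-loop-helix (bHLH) proteins, GATA2 and GATA3 are zinc finger proteins, TBX2 is a T-box protein and TFAP2B is the AP-2 beta protein.

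The cell lines were checked against marker genes before the factors were compared. In BE(2)-C, 12 of 12 sympathoadrenal markers had a mean of at least 1 FPKM (fragments scaled to gene length in kb and to library size), with chromogranin A (CHGA) as the most abundant. They summed to 2374, 2206 and 2182 FPKM with siC, and to 2528, 2421 and 2397 FPKM after depletion, so that the groups did not overlap. The sum is weighted to abundant genes such as CHGA, which went from 789.9 to 1034 FPKM, and CHGB, which went from 150.8 to 267 FPKM. Of the 12 markers, 4 were called lower and 5 higher. That is 75% called, beside 28.2% of all tested genes and 49.1% of protein-coding genes with a mean of at least 10 FPKM. PHOX2A, HAND2, ISL1 and GATA3 are themselves on this list. In Hep-G2, 0 of these 12 markers reached a mean of 1 FPKM, and HAND2, ISL1, CHGA, STMN2 and ELAVL4 were among those at 0 in every library. Of 12 hepatocyte markers, 12 reached that mean in Hep-G2 and 0 in BE(2)-C, where AFP, HNF4A, FOXA2, FGB and AHSG were at 0. The labelled identities therefore matched the markers in both lines. Of 12 markers of Schwann cell precursors and mesenchymal cells, 8 were tested in BE(2)-C and 2 were called (25%, beside 28.2% of all tested genes). The 12 summed to 32.2, 27.3 and 31.9 FPKM with siC, against 38.7, 40.7 and 38.1 FPKM with siI1, with 4 of 12 at a mean of at least 1 FPKM and PDGFRB as the most abundant. The defining Schwann lineage gene SOX10 was near 0, at 0.0129 FPKM with siC and 0.0128 with siI1, while the 2 called genes, the matrix proteoglycans LUM and DCN, rose from 6.36 to 13.5 FPKM and from 3.85 to 6.12 FPKM, by 1.08 and 0.66 on the log2 scale (adjusted p = 3.31e-04 and 9.82e-04). Of 7 endothelial and blood markers, 1 reached a mean of 1 FPKM in BE(2)-C, the monocyte gene CD14, the only 1 tested there and called lower (log2 fold change -1.20, adjusted p = 0.0237), and KDR and PTPRC were at 0. These summed to 2.34, 1.34 and 2.03 FPKM with siC, against 0.646, 1.27 and 0.709 FPKM with siI1. In Hep-G2 the sum of the same 7 went from 0.798, 1.01 and 0.816 FPKM with siC to 3.47, 2.51 and 2.50 FPKM with siI1. In both lines the sum mainly followed CD14, which was called higher in Hep-G2 (log2 fold change 1.38, adjusted p = 4.85e-04). PECAM1 was not called there (-0.05, adjusted p = 0.912). HBB was also called (2.30, adjusted p = 0.0044), but was at 0 FPKM in every siC library. It passed the filter only through the siI1 libraries, on at most 12 reads. The size of its change is set by the pseudocount, and its call is not read as a change. LUM, DCN, CD14 and HBB were picked after their values were seen, and their calls were not tested under the alternatives. The part of these other markers in the results on the core factors was not tested.

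In control BE(2)-C cells the core factors were among the more abundant mRNAs, at levels that spanned from 403 FPKM for HAND1 to 19.4 FPKM for TFAP2B. FPKM is per length, so levels can be set beside each other between genes of the same table. By mean FPKM with siC, HAND1 ranked 77 and PHOX2A 89 among the 12600 protein-coding genes tested, and the ranges of these factors over 3 libraries overlapped (382 to 430.1 FPKM and 334 to 387 FPKM). HAND2 (274 to 291 FPKM) and GATA2 (255 to 275 FPKM) followed at ranks 124 and 142, with ranges that overlapped too. Within each siC library, however, HAND1 lay above PHOX2A and HAND2 above GATA2. GATA3 and TBX2 formed another overlapping pair at 57.3 ± 2.2 and 56.0 ± 2.5 FPKM (SD, n = 3), at ranks 808 and 829. Here too, GATA3 lay above TBX2 within each siC library. ISL1 stood below them at 27.6 ± 1.6 FPKM and TFAP2B was the lowest at 19.4 ± 1.2 FPKM (SD, n = 3), with ranges that did not overlap with any neighbour in the order. Together the 8 factors summed to 1469 ± 66.4 FPKM with siC and 1308 ± 16.3 FPKM with siI1 (SD, n = 3).

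**Figure D1:**
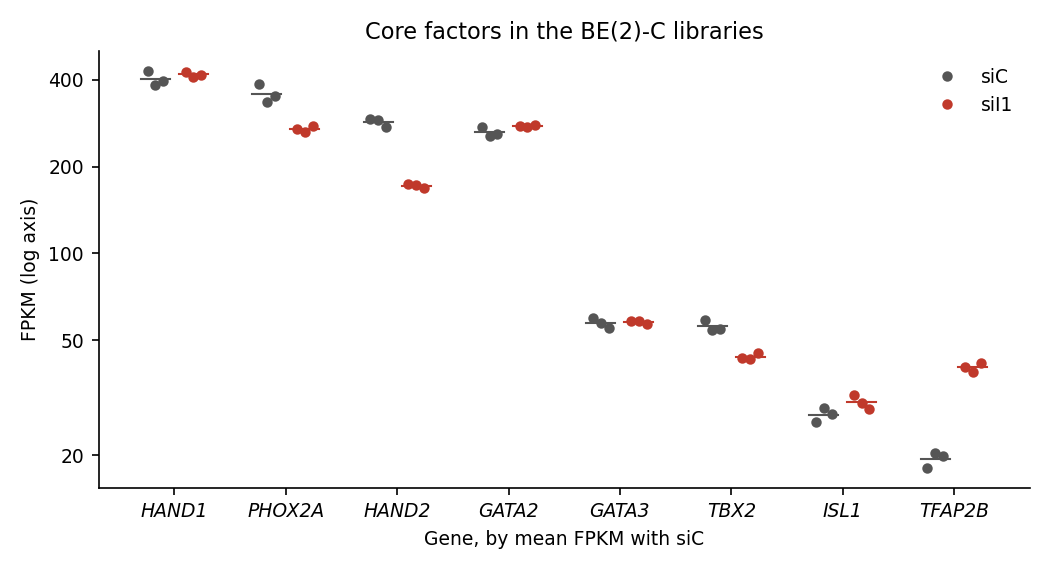
FPKM (log axis) of each core factor in the BE(2)-C libraries, with 1 point per library, siC in grey and siI1 in red, and a line at each mean of 3 libraries. The siI1 points of HAND2, PHOX2A and TBX2 lie below their siC points, those of TFAP2B lie above, and both groups overlap for HAND1, GATA2, GATA3 and ISL1.

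The first comparison asked how the core factors of BE(2)-C cells responded to depletion of IGF2BP1, an RNA-binding protein known for shielding target mRNAs from decay. IGF2BP1 itself went from 21.2 ± 0.50 to 4.82 ± 0.067 FPKM (SD, n = 3), a log2 fold change of -2.11 (SE 0.05, adjusted p = 1.48e-05). Of the 8 factors, HAND2, PHOX2A and TBX2 fell, TFAP2B rose, and HAND1, GATA2, GATA3 and ISL1 did not pass the threshold of 0.05 for the adjusted p. Across the 18656 genes tested in BE(2)-C, 28.2% were called, 14.8% as lower and 13.3% as higher. Among the 3955 protein-coding genes with a mean of at least 10 FPKM, a level that each of the 8 factors exceeded, 49.1% were called, 33% as lower and 16% as higher. The 4 of 8 factors called are thus a share near that of other abundant mRNAs, and the count as such sets the factors apart from nothing. The median log2 fold change was 0.035 over the 8 factors (0.02 over all tested genes).

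The bHLH pair split: HAND2 fell by 39.9% while HAND1 was not called. HAND2 (ENSG00000164107, hg38 chr4:173524969-173530229, minus strand) is a regulator of noradrenergic differentiation of sympathetic neurons. The siC libraries held 291, 290.4 and 274 FPKM, against 174, 172 and 168 FPKM after depletion. Every siI1 library lay more than 100 FPKM below the lowest siC library. The log2 fold change was -0.73 (95% confidence interval -0.84 to -0.63, adjusted p = 1.69e-04), with 8404 to 15060 reads per library. HAND1 (ENSG00000113196, chr5:154474972-154478227, minus strand), its close relative, best known from heart and placenta, measured 430.1, 382 and 397 FPKM with siC and 427, 409.5 and 417 FPKM with siI1. These groups overlapped, and the log2 fold change was 0.05 (95% confidence interval -0.08 to 0.19, adjusted p = 0.543). The ratio of HAND2 to HAND1 FPKM moved accordingly from 0.709 ± 0.044 to 0.410 ± 0.0089 (SD, n = 3, exact two-sided permutation p = 0.1). This is the smallest p that 3 libraries against 3 can give, and the ratio is 1 of 3 between related factors that were chosen after the values were seen.

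The promoters of factors that moved are shown beside that of a relative that was not called. RefSeq (hg38) held promoter entries for 7 of the 8 factors, with TBX2 lacking one. Of the 6 entries for GATA3 and the 2 for GATA2, the 1 nearest to the start of the canonical GENCODE transcript was used, and the GATA3 window (chr10:8054438-8054687) lies inside the GENCODE span of the gene. The 250 bases before each start were searched on both strands for 6 motifs. GATA factors are known to bind AGATAA, and bHLH proteins the E-box, CANNTG. For T-box proteins GGTGTGA was searched, and for AP-2 proteins GCCNNNGGC. Dimers of paired-type homeodomains were represented by TAAT and ATTA with 3 bases between. The last motif was the TATA box, TATAAA. Matches are in capitals, and no printed match overlaps with another. Of 35116 promoters of the same length, 9.17% held the GATA motif, 61.8% the E-box, 2.76% the T-box motif, 19.8% the AP-2 motif, 0.33% the homeodomain motif and 10.7% the TATA box. The HAND2 window (chr4:173530230-173530479, minus strand) held 1 E-box, 242 bases before the start, and 1 GATA motif on the opposite strand, 172 bases before the start. The HAND1 window (chr5:154478228-154478477, minus strand) held 1 AP-2 motif, 72 bases before the start. In the PHOX2A window (chr11:72244177-72244426, minus strand), which lies inside the longer GENCODE span of the gene, none of the 6 motifs was found. For TFAP2B the 102 bases before the GENCODE start of the gene are shown (chr6:50818621-50818722, plus strand), with 1 TATA box on the opposite strand, 202 bases before the RefSeq start.
HAND2: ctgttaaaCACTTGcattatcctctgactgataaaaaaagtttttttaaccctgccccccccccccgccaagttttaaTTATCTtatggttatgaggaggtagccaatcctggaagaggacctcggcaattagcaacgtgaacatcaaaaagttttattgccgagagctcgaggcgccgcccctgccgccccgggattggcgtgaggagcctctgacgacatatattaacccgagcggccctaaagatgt
HAND1: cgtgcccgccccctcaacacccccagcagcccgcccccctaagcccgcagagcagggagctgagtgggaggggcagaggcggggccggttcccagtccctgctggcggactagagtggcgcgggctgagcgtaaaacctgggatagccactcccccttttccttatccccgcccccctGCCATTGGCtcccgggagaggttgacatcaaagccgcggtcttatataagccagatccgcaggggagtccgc
PHOX2A: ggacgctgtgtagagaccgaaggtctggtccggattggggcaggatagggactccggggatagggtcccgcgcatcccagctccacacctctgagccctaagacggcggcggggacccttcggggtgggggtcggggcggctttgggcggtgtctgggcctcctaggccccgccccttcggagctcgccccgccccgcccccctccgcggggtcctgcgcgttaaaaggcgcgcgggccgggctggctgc
TFAP2B: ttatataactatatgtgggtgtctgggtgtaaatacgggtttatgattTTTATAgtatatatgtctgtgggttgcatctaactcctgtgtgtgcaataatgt
Of the windows not printed, that of GATA2 held 1 AP-2 motif, that of GATA3 held 1 E-box and 1 AP-2 motif, and that of ISL1 held 1 GATA motif and 1 E-box. These matches describe letters and not binding.

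HAND proteins bind DNA as dimers with the widely expressed E proteins, and ID proteins compete for the same partners. Of 9 genes on a list of such partners and inhibitors, 9 were tested in BE(2)-C, 3 were lower and 1 was higher (44.4% called, beside 28.2% of all tested genes and 49.1% of the abundant protein-coding genes, median log2 fold change -0.06, all genes 0.02). HES6, a bHLH factor of neuronal differentiation, fell from 26.2 ± 1.5 to 12.3 ± 1.8 FPKM (SD, n = 3, log2 fold change -1.09, adjusted p = 6.82e-04). The 3 E proteins moved little and unequally, with log2 fold changes of -0.30 for TCF4 (adjusted p = 0.0253), -0.24 for TCF3 (adjusted p = 0.0208) and 0.23 for TCF12 (adjusted p = 0.0303). None of these E protein calls held in all 15 alternative settings. That of TCF4 was lost with equal sums of FPKM (adjusted p = 0.0525) and when siC replicate 2 or 3, or any 1 siI1 library, was left out (0.0633 to 0.0831, in a range that began at 8.34e-04). That of TCF3 was lost with no trend (0.0749) and without siI1 replicate 1 (0.0669) or 2 (0.0641), in a range that began at 0.00195. That of TCF12 was lost with no trend (0.0827) and without siC replicate 1 (0.0647), siC replicate 2 (0.0691), siI1 replicate 2 (0.0919) or siI1 replicate 3 (0.106), in a range that began at 0.00345. ID3, the most abundant gene of the list, measured 180.2 ± 8.7 FPKM with siC and 169 ± 3.6 FPKM with siI1 (SD, n = 3) and was not called (adjusted p = 0.231).

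Of the homeodomain factors, PHOX2A fell by 24.4% and ISL1 was not called. PHOX2A (ENSG00000165462, chr11:72239077-72245664, minus strand) specifies noradrenergic neurons and activates genes of noradrenaline synthesis. It measured 387, 334 and 352 FPKM with siC, against 269, 264 and 277 FPKM after depletion. The groups did not overlap, although the siC libraries were spread over more than 50 FPKM. The log2 fold change was -0.40 (95% confidence interval -0.55 to -0.25, adjusted p = 0.0042), with 6670 to 9909 reads per library.

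ISL1 (ENSG00000016082, chr5:51383448-51394730, plus strand), a LIM homeodomain factor of sympathetic and sensory neurons, measured 26.0, 29.2 and 27.7 FPKM with siC and 32.4, 30.2 and 29.0 FPKM with siI1. The lowest siI1 library lay just under the highest siC library. The log2 fold change of 0.14 had a 95% confidence interval from -0.0044 to 0.29 (adjusted p = 0.135). LIM homeodomain proteins work through LDB adaptors, which LMO proteins also bind. Of 9 genes on the list of ISL1 partners and paralogs, 4 were tested, and 3 of these were higher, beside 13.3% of all tested genes (fewer when an siI1 library is left out), and 0 lower (median log2 fold change 0.40, all genes 0.02). The competitor LMO4 rose from 5.33 ± 0.46 to 10.0 ± 0.57 FPKM and the adaptor LDB2 from 5.04 ± 0.27 to 7.69 ± 0.47 FPKM (SD, n = 3), log2 fold changes of 0.90 and 0.60 (adjusted p = 5.59e-04 and 0.00162). LDB1, the most abundant adaptor, changed from 37.2 ± 2.0 to 42.6 ± 0.61 FPKM (SD, n = 3, log2 fold change 0.19, adjusted p = 0.0266), a call that was lost in 5 of 15 alternatives. These were the fit with no trend (adjusted p = 0.0966) and those without siC replicate 2 (0.0519), siI1 replicate 1 (0.077), siI1 replicate 2 (0.0673) or siI1 replicate 3 (0.0897), in a range that began at 0.00798.

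The GATA factors were the steadiest pair. GATA2 (ENSG00000179348, chr3:128479427-128493201, minus strand), a zinc finger factor of blood and of the sympathetic lineage, measured 275, 255 and 259 FPKM with siC and 277, 274 and 278 FPKM with siI1. The groups touched through the first siC library, and the log2 fold change of 0.07 had a 95% confidence interval from -0.04 to 0.18 (adjusted p = 0.297). GATA3 (ENSG00000107485, chr10:8045378-8075198, plus strand), needed for the survival of sympathetic neurons, measured 59.6, 57.2 and 55.2 FPKM with siC and 58.5, 58.3 and 57.1 FPKM with siI1. Its siI1 values fell inside the siC range, with a log2 fold change of 0.02 (95% confidence interval -0.08 to 0.12, adjusted p = 0.812). These intervals leave out changes of the size seen for HAND2. The ratio of GATA2 to GATA3 FPKM, chosen after the values were seen, was 4.59 ± 0.12 with siC and 4.77 ± 0.088 with siI1 (SD, n = 3, exact two-sided permutation p = 0.1, the smallest possible).

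Of 9 GATA partners and paralogs, 6 were tested, 1 was lower and 1 was higher (33.3% called, near the 28.2% of all tested genes, median log2 fold change 0.06, all genes 0.02). LMO2, which joins GATA factors to bHLH proteins in blood precursors, went from 1.23 ± 0.11 to 0.546 ± 0.032 FPKM (SD, n = 3, log2 fold change -1.04, adjusted p = 0.00332), on 23 to 60 reads per library and in a range from -1.16 to -0.53 over 15 alternatives. The cofactor ZFPM1, also called FOG1, went from 2.85 ± 0.57 to 4.92 ± 0.20 FPKM (SD, n = 3, log2 fold change 0.79, adjusted p = 0.00812). GATA4, the paralog with the highest level, had 27.9 ± 2.2 FPKM with siC and 26.2 ± 0.31 FPKM with siI1 (SD, n = 3) and was not called (adjusted p = 0.338).

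TBX2 and TFAP2B moved in opposite directions. TBX2 (ENSG00000121068, chr17:61399843-61409466, plus strand), a T-box factor that mostly represses and is known for holding back senescence, measured 58.9, 54.4 and 54.6 FPKM with siC and 43.4, 42.9 and 45.0 FPKM with siI1. The groups were well apart, and TBX2 fell by 21.8%, with a log2 fold change of -0.35 (95% confidence interval -0.46 to -0.24, adjusted p = 0.00226) on 3660 to 5098 reads per library. Its relative TBX3 fell by a similar step, from 41.1 ± 1.4 to 33.4 ± 1.3 FPKM (SD, n = 3, log2 fold change -0.30, adjusted p = 0.00442). The ratio of TBX2 to TBX3 FPKM, the last of the ratios picked with values in view, was 1.36 ± 0.093 with siC and 1.31 ± 0.018 with siI1 (SD, n = 3, exact two-sided permutation p = 0.5).

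TFAP2B (ENSG00000008196, chr6:50818723-50847619, plus strand), an AP-2 factor of neural crest and sympathetic neurons, was the 1 core factor that rose. Control libraries had 18.0, 20.3 and 19.9 FPKM, and depleted ones had 40.4, 38.7 and 41.8 FPKM. Each siI1 library was above each siC library by a wide margin, and the mean was 2.08 times as high with siI1. The log2 fold change was 1.05 (95% confidence interval 0.92 to 1.19, adjusted p = 1.52e-04), with 1592 to 3844 reads per library. With this rise TFAP2B passed ISL1 in the order of levels, moving from rank 2397 to rank 1086 of 12600 protein-coding genes. In the siI1 libraries the order was HAND1, GATA2, PHOX2A, HAND2, GATA3, TBX2, TFAP2B and ISL1, and of the neighbours in it GATA2 and PHOX2A overlapped. Of 8 paralogs of TBX2 and TFAP2B, 3 were tested, and 1, TBX3, was lower (33.3%, beside 14.8% lower among all tested genes, median log2 fold change -0.30, all genes 0.02). TFAP2A, the AP-2 alpha gene, had at most 2 reads in any BE(2)-C library.

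**Figure D2:**
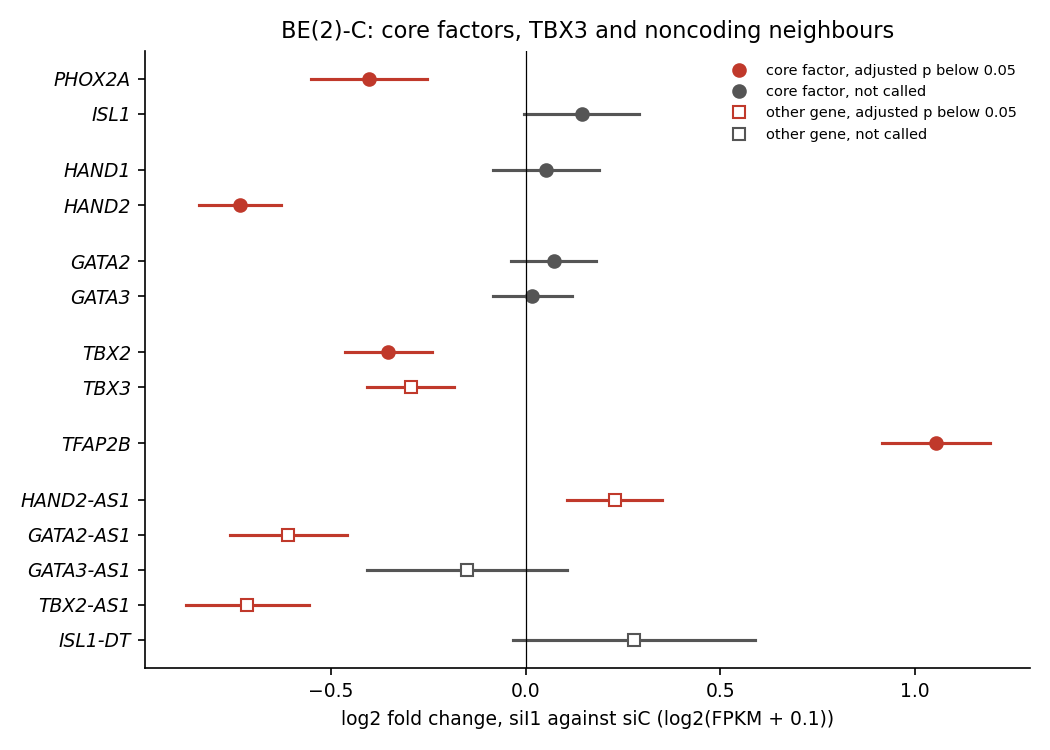
Log2 fold change of siI1 against siC in BE(2)-C, with lines for the 95% confidence interval from limma over 3 libraries per group, red for an adjusted p below 0.05 and grey otherwise, filled circles for core factors and open squares for other genes. PHOX2A, HAND2 and TBX2 lie left of 0, as does TBX3, and TFAP2B lies at 1.05 on the right.

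Several core factor genes have noncoding neighbours that start next to them or run across them on the other strand. The list held 8 noncoding RNAs, 1 of which, GATA6-AS1, lies beside the paralog GATA6 and not beside a core factor. Of the 8, 6 were found in the tables, ISL1-AS1 and HAND1-DT having no match, and 5 were tested in BE(2)-C, of which 2 were lower and 1 was higher (60% called, beside 28.2% of all tested genes, median log2 fold change -0.15, all genes 0.02). TBX2-AS1 (ENSG00000267280) fell like TBX2 itself, from 31.0 ± 2.1 to 18.9 ± 1.1 FPKM (SD, n = 3, log2 fold change -0.72, adjusted p = 6.21e-04). GATA2-AS1 (ENSG00000244300) fell from 22.1 ± 1.1 to 14.5 ± 0.89 FPKM (SD, n = 3, log2 fold change -0.61, adjusted p = 8.79e-04), while GATA2 was not called. HAND2-AS1 (ENSG00000237125) measured 23.2 ± 1.3 and 27.1 ± 0.50 FPKM (SD, n = 3), a log2 fold change of 0.23 opposite in sign to that of HAND2 (adjusted p = 0.0173). This call was lost with no trend in the error model (adjusted p = 0.0663) and without siI1 replicate 1 (0.0555) or replicate 3 (0.0647), in a range from 7.80e-04 to 0.0663 over 15 alternatives. GATA3-AS1 had 6.71 ± 0.27 and 6.08 ± 0.90 FPKM (SD, n = 3, adjusted p = 0.352), and ISL1-DT, listed under an older clone name, had 2.23 ± 0.35 and 2.71 ± 0.14 FPKM (SD, n = 3, adjusted p = 0.164). GATA6-AS1 had at most 5 reads in a BE(2)-C library and was not tested.

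In GENCODE, the exons of HAND2-AS1 share 867 nt with those of HAND2, and the exons of GATA2-AS1 share 78 nt with those of GATA2. For TBX2-AS1 and GATA3-AS1 the spans of the genes overlap and the exons share 0 nt, and ISL1-DT begins 115 nt from ISL1. The study counted reads on an Ensembl annotation with other gene models. HAND2-AS1, for example, has a deposited length of 9829 nt, against 21289 nt of exons in GENCODE. The overlaps in the models used for counting were not measured. The libraries were strand-specific per the labels, but the strand setting of the read counting is not stated. Whether reads of a factor were counted for its antisense neighbour, or the reverse, was not tested.

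In Hep-G2 the circuitry was almost silent. HAND1, HAND2, ISL1 and TFAP2B had 0 reads in all 6 libraries, and PHOX2A and GATA3 had 1 read each over the 6 libraries. A count of 0 allows up to 3 reads per library, which is at most 0.129 FPKM for HAND1, 0.0623 for HAND2, 0.0779 for ISL1 and 0.0365 for TFAP2B, counting error alone being covered. TBX2 and GATA2, which also act outside the sympathetic lineage, were expressed at low levels, and both rose. TBX2 measured 4.16, 4.02 and 4.16 FPKM with siC and 5.18, 6.03 and 5.68 FPKM with siI1, on 330 to 529 reads per library. GATA2 measured 4.33, 3.93 and 4.61 FPKM with siC and 5.65, 6.11 and 5.82 FPKM with siI1, on 239 to 397 reads per library. For both genes the groups did not overlap, with log2 fold changes of 0.44 for TBX2 (SE 0.08, adjusted p = 0.00457) and 0.44 for GATA2 (SE 0.08, adjusted p = 0.00518). Of the 19436 genes tested in Hep-G2, 44.8% were called and 21.9% were higher, so that 2 of 2 tested factors is a small count against a broad response. IGF2BP1 went from 48.6 ± 2.1 to 11.3 ± 1.1 FPKM in Hep-G2 (SD, n = 3, log2 fold change -2.10, adjusted p = 7.83e-06). The tables were normalized separately, so levels were not tested between the lines.

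The second comparison asked whether the knockdown effect differed between the lines. It did for both factors tested, as for 40.2% of the 15362 genes tested in both. TBX2 was lower with siI1 in BE(2)-C and higher in Hep-G2, and its log2 fold change in BE(2)-C minus that in Hep-G2 was -0.79 (SE 0.08, adjusted p = 2.84e-05). For GATA2 the same difference was -0.37 (SE 0.08, adjusted p = 0.00407). When libraries were scaled to equal FPKM sums, the median log2 fold change over all Hep-G2 genes shifted by -0.16 and took the share of higher genes among those called there from 48.8% to 35.5%. With that scaling the GATA2 difference was -0.19 and no longer passed (adjusted p = 0.104, in a range from 0.0019 to 0.104 over 18 alternatives), while that of TBX2 kept its call in 18 of 18. The log2 fold change in Hep-G2 kept its call in 15 of 15 alternatives for both genes, from 0.28 to 0.53 for TBX2 and from 0.28 to 0.535 for GATA2. For IGF2BP1 the difference between the lines was -0.02 (SE 0.09, adjusted p = 0.914).

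The antisense neighbours of these genes differed between the lines too. TBX2-AS1 rose in Hep-G2 from 7.84 ± 0.44 to 12.3 ± 1.3 FPKM (SD, n = 3, log2 fold change 0.64, adjusted p = 0.00145), and its difference between the lines was -1.35 (SE 0.12, adjusted p = 6.91e-06). GATA2-AS1 went from 6.50 ± 0.63 to 9.48 ± 1.8 FPKM (SD, n = 3, log2 fold change 0.53, adjusted p = 0.023), with a difference between the lines of -1.14 (SE 0.17, adjusted p = 2.93e-04). The Hep-G2 call of GATA2-AS1 was lost with equal sums of FPKM (adjusted p = 0.135) and without siC replicate 2 (0.0702), siC replicate 3 (0.0633) or siI1 replicate 3 (0.06), in a range from 0.00428 to 0.135. The paralog's neighbour GATA6-AS1, which was not tested for a difference between the lines, stood at 0.0902 ± 0.064 and 0.292 ± 0.068 FPKM in Hep-G2 (SD, n = 3, log2 fold change 1.08, adjusted p = 0.043). It passed the filter through its siI1 libraries, with only siC replicate 2 also reaching 0.1 FPKM, on 1 to 9 reads per library. The filter thus favoured a higher call, and the call is not read as a change. That call was kept in 5 of 14 alternatives. It was lost with a pseudocount of 0.01, no filter, equal sums of FPKM, the replicate block, and without any 1 library other than siC replicate 2 (adjusted p = 0.0552 to 0.14, in a range that began at 0.0265). HAND2-AS1, GATA3-AS1 and ISL1-DT were at 0 in the 6 Hep-G2 libraries.

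**Figure D3:**
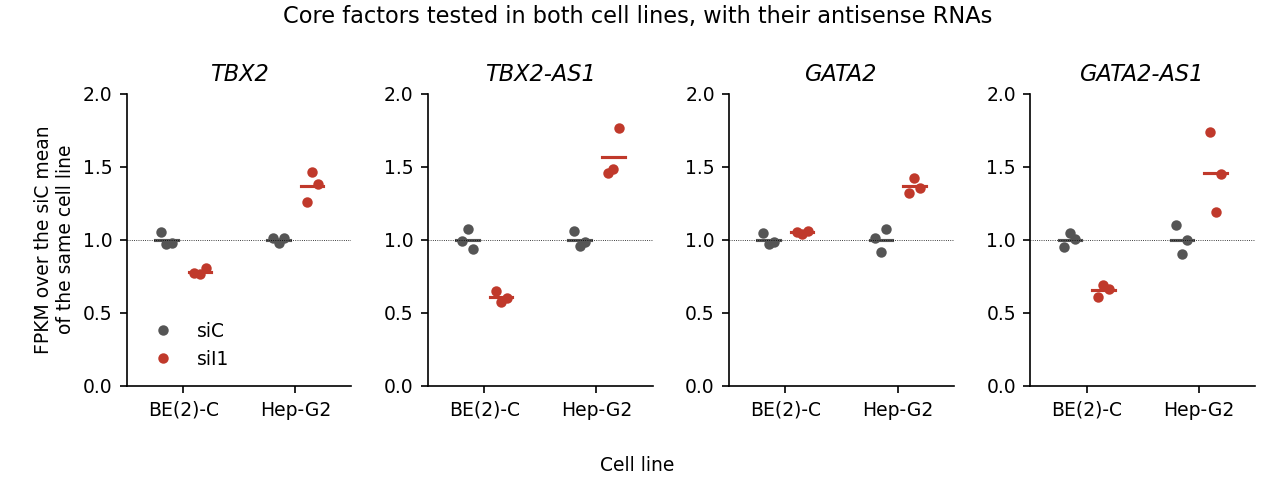
FPKM of TBX2, GATA2 and their antisense RNAs in each library, divided by the siC mean of the same cell line, with siC in grey, siI1 in red and lines at the means of 3 libraries. In Hep-G2 the siI1 points of the 4 RNAs lie above 1, and in BE(2)-C those of TBX2, TBX2-AS1 and GATA2-AS1 lie below 1.

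Around the core factors, other factors of the adrenergic state moved in both directions. Of 30 such genes, 28 were tested in BE(2)-C, 6 were lower and 7 higher (46.4% called, beside 28.2% of all tested genes and 49.1% of the abundant protein-coding genes, median log2 fold change 0.14, all genes 0.02). The higher calls of LMO4 and LDB1 are counted among the ISL1 partners too. The lower call of TBX3 is also that of the TBX2 and TFAP2B paralogs, so these list counts are not independent. INSM1, a zinc finger factor of neuroendocrine cells, and EBF3 had log2 fold changes of -1.31 and -0.45 (adjusted p = 0.0107 and 0.00205), INSM1 on 18 to 81 reads per library and in a range from -1.58 to -0.72 over 15 alternatives. The genes that rose included the LIM-only factors LMO3 and LMO4, the Notch target HEY1 and SOX4, with log2 fold changes of 1.02, 0.90, 0.85 and 0.51 (adjusted p = 0.00534, 5.59e-04, 2.45e-04 and 4.77e-04), that of LMO3 running from 0.57 to 1.13 over 15 alternatives. MYCN, the oncogene amplified in BE(2)-C, was the most abundant gene of the list at 1659.5 ± 35.4 FPKM with siC and 1897 ± 52.0 FPKM with siI1 (SD, n = 3). It was not called (log2 fold change 0.19, adjusted p = 0.0566), but was so in 5 of 15 alternatives, with adjusted p from 5.27e-06 to 0.219.

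Factors of the mesenchymal state, the other identity that neuroblastoma cells can take, were sparse in BE(2)-C. Of 32 genes, 17 were tested, 2 were lower and 3 higher (29.4% called, close to the 28.2% of all tested genes, median log2 fold change 0.06, all genes 0.02). AEBP1 and SOX9 fell, with log2 fold changes of -1.12 and -0.78 (adjusted p = 8.74e-04 and 0.00139). TWIST1, the bHLH factor of mesenchymal transition that is also abundant in MYCN-amplified neuroblastoma, rose from 59.1 ± 2.5 to 71.1 ± 2.0 FPKM (SD, n = 3, log2 fold change 0.27, adjusted p = 0.00681). SNAI2 and SIX4 had log2 fold changes of 0.40 and 0.91 (adjusted p = 0.0147 and 0.0347). The call of SIX4, on 25 to 81 reads per library, was lost in 7 of 14 alternatives: with no filter, with the replicate block, and without siC replicate 1 or 2 or any 1 siI1 library (adjusted p = 0.0679 to 0.107, in a range that began at 7.21e-04). That of SNAI2 was lost without siI1 replicate 3 (adjusted p = 0.0609, the highest of a range from 0.0083). The master factor PRRX1 and the effectors YAP1 and WWTR1 did not reach the filter, with at most 3 reads per library for YAP1 and 6 for WWTR1.

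Among genes of the sympathoadrenal program that are not transcription factors, changes went both ways. Of 33 genes, 33 were tested, 10 were lower and 16 higher (78.8% called, beside 28.2% of all tested genes and 49.1% of the abundant protein-coding genes, median log2 fold change 0.10, all genes 0.02). The enzymes of catecholamine synthesis did not move as 1 group. Dopamine beta-hydroxylase (DBH), a known target of PHOX2A, had 276 FPKM with siC and 213 with siI1 (log2 fold change -0.37, adjusted p = 0.0128). Tyrosine hydroxylase (TH) rose from 30.1 to 46.0 FPKM (log2 fold change 0.61, adjusted p = 0.00369), and GCH1, which makes its cofactor, from 13.5 ± 2.1 to 23.0 ± 0.42 FPKM (SD, n = 3, log2 fold change 0.77, adjusted p = 0.00216). DDC and PNMT, the other enzymes of this path on the list, were not called (log2 fold change 0.10 and -1.30, adjusted p = 0.175 and 0.0688). DBH, TH, DDC and PNMT fall outside the rule for named genes and were picked after their values were seen, as were CHRNB4, NEFM and STMN2. Genes that fell included the nicotinic receptor subunits CHRNA3 and CHRNB4 (log2 fold change -1.10 and -0.91, adjusted p = 3.48e-05 and 1.65e-04), the peptide galanin (GAL, -0.997, adjusted p = 1.22e-04), the vesicle protein SYT1 (-0.97, adjusted p = 2e-04) and STMN4 (-1.68, adjusted p = 1.65e-04). Genes that rose included neuropeptide Y, from 32.3 ± 3.6 to 108 ± 9.7 FPKM (NPY, SD, n = 3, log2 fold change 1.74, adjusted p = 1.52e-04), chromogranin B (CHGB, 0.82, adjusted p = 1.27e-04), SNAP25 (0.80, adjusted p = 1.67e-04), the neurofilament NEFM (0.68, adjusted p = 2.76e-04) and STMN2 (0.58, adjusted p = 4.94e-04). CHGA, the most abundant of them, rose from 789.9 ± 54.0 to 1034 ± 50.9 FPKM (SD, n = 3, log2 fold change 0.39, adjusted p = 0.00792). In Hep-G2, 6 of these 33 genes were tested and 7 were at 0 in every library.

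**Figure D4:**
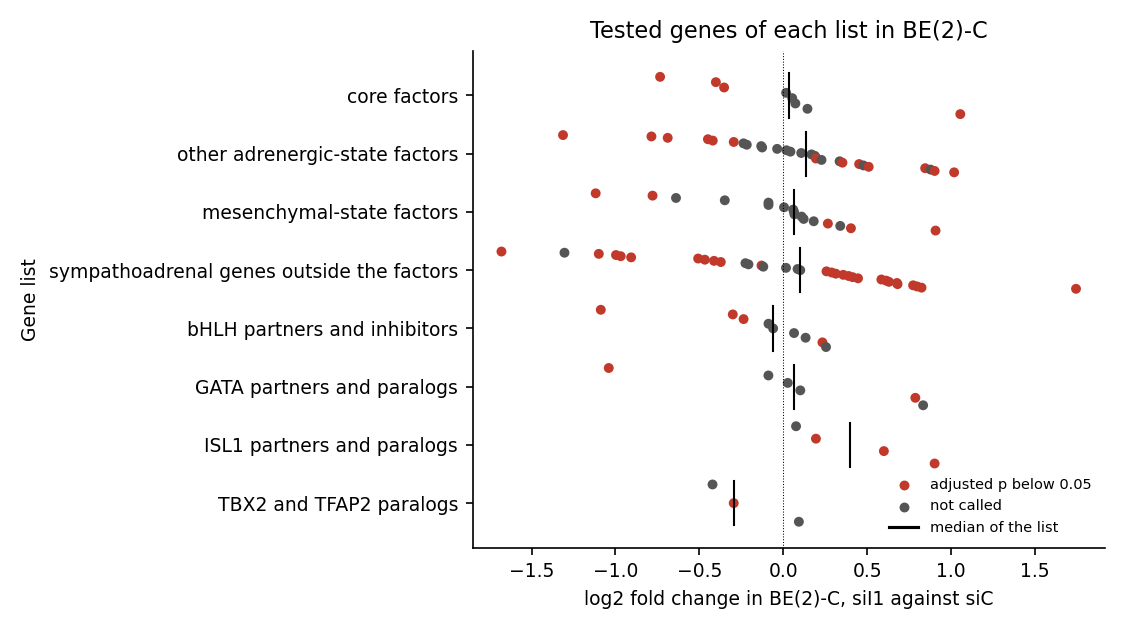
Log2 fold change in BE(2)-C of each tested gene of the 8 lists, with 1 point per gene, red for an adjusted p below 0.05 and grey otherwise, and a black line at the median of the list. Points lie on both sides of 0 in each list but that of the ISL1 partners, whose 4 points lie to the right of it.

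The genes whose pattern over the 6 BE(2)-C libraries was most like that of a core factor are given as a description, from 10035 protein-coding genes with a mean of at least 1 FPKM. The measure was Pearson's r of the log2 values, which takes in the step between the siRNAs as well as the spread among libraries, and it lay between 0.976 and 0.999 for the pairs named. HAND2 was closest to SAE1, a subunit of the SUMO-activating enzyme, and to GAL, with log2 fold changes of -0.50 and -0.997. PHOX2A was closest to BCL2L12 and PIGS (-0.49 and -0.26), and TBX2 to the nucleolar protein gene NOP56 and the mitochondrial ribosomal protein gene MRPL55 (-0.20 and -0.33). The call of NOP56 was lost with no trend (adjusted p = 0.0612). TFAP2B was closest to the Wnt pathway receptor gene LGR5 and the small GTPase gene RERG (0.71 and 1.00). For the factors that were not called, the closest genes, which the measure itself selects for a like step, were ATP6V0B and DNPEP for HAND1, ZSWIM4 and GLI4 for GATA2, HSD17B10 and RGL2 for GATA3, and AAGAB and NAA50 for ISL1. Without siC replicate 1, ZSWIM4 and GLI4 passed the threshold (adjusted p = 0.0299 and 0.0467), and NAA50 did so with median centring (adjusted p = 0.0477).

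The mRNAs of the 8 factors were also compared by the length of the 3′UTR, the region where IGF2BP1 is known to bind many targets. In the canonical GENCODE transcripts it measured 672 nt in PHOX2A, 834 nt in HAND1, 960 nt in TBX2, 1120 nt in ISL1, 1175 nt in GATA3, 1186 nt in HAND2, 1592 nt in GATA2 and 4227 nt in TFAP2B, beside a median of 1019 nt over 19701 protein-coding genes. TFAP2B, the factor that rose, stood apart in this respect, with 9.75% of genes having a longer 3′UTR, while the 3 that fell were spread among the other lengths. The 8 genes lie on 7 chromosomes, HAND1 and ISL1 sharing chromosome 5 at a distance.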

How the data were processed

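Per the labels, poly-A RNA was enriched with oligo(dT) beads and made into strand-specific libraries. The authors trimmed reads with cutadapt 1.14, aligned them to hg38 with HISAT2 2.1.0, sorted them with SAMtools 1.5, counted them per gene with featureCounts 1.5.3 and tested them with edgeR 3.30.3. The deposited tables hold FPKM per library on TMM-scaled library sizes, as read from the values, with gene lengths. The columns with the authors' own fold changes and test results (log2 fold change, p-value, FDR) were not used here. FPKM times length gave whole reads for 100% of values at a tolerance of 1e-04, and the sums are the depths given.

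Genes with at least 0.1 FPKM in at least 3 of 6 libraries were tested on log2(FPKM + 0.1) with limma 3.58.1 (R 4.3.3, lmFit and eBayes with trend), with Benjamini-Hochberg adjustment over all tested genes and a threshold of 0.05. The difference between lines was fitted over 12 libraries on genes passing in both tables. Named genes are the factors, IGF2BP1, noncoding neighbours, the 4 called genes per direction with the largest changes in each list, its most abundant gene, and 2 genes most like each factor, some of which are not reported here. The factors and lists were chosen with earlier results of these data known. Alternatives covered the pseudocount (0.01 and 1), the filter (none, or 1 FPKM), scaling, no trend, voom on reads, a replicate block and leaving out each library. Promoters are from RefSeq, and positions, exons and 3′UTRs from GENCODE, which is not the annotation the reads were counted on. Scripts ran in Python 3.11.15 with Matplotlib 3.10.9, pandas 2.3.3 and NumPy 2.4.6.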

Additional observations from a re-analysis of the deposited data

Results flagged for a closer look

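Of 21 genes tested in both cell lines among the factors, IGF2BP1, the noncoding RNAs and the genes named from the lists (those named for their likeness to a factor not counted), 15 had a knockdown effect that differed between the lines by the fitted difference (log2 fold change in BE(2)-C minus that in Hep-G2, 6 libraries per line, adjusted over 15362 genes, of which 40.2% passed). Most genes from the lists were named for the size of their change in BE(2)-C, which favours a difference, so the count is not to be read against that share. Among core factors these were TBX2 at -0.79 (adjusted p = 2.84e-05) and GATA2 at -0.37 (adjusted p = 0.00407, lost with equal sums of FPKM at -0.19, adjusted p = 0.104), and among their antisense neighbours TBX2-AS1 at -1.35 (adjusted p = 6.91e-06) and GATA2-AS1 at -1.14 (adjusted p = 2.93e-04). The GATA paralog GATA4, higher in Hep-G2 and not called in BE(2)-C, differed by -0.67 (adjusted p = 2.18e-04).

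Among bHLH partners and inhibitors, HES6 fell in BE(2)-C and rose in Hep-G2, a difference of -2.10 (adjusted p = 3.01e-06). ID3, which rose in Hep-G2 from 29.3 ± 0.67 to 68.7 ± 2.5 FPKM (SD, n = 3), differed by -1.32 (adjusted p = 2.30e-07). TCF3 differed by -0.41 (adjusted p = 0.00132) and TCF12 by 0.42 (adjusted p = 0.0359), the latter without a call in 9 of 18 alternatives (adjusted p from 0.00144 to 0.0783).

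The adrenergic-state factors HEY1, SOX4 and LMO4 rose in BE(2)-C and fell in Hep-G2, where the call of LMO4 (log2 fold change -0.33, adjusted p = 0.0197) was lost with median centring and without siC replicate 2, siC replicate 3 or siI1 replicate 3 (adjusted p = 0.0596 to 0.0654). They differed by 1.82, 1.70 and 1.23 (adjusted p = 8.33e-06, 9.52e-08 and 1.68e-05). SIX4, on few reads, differed by 1.5 (adjusted p = 0.00186). The secretory granule gene CHGB, at 0.387 ± 0.037 FPKM in Hep-G2 siC libraries (SD, n = 3), differed by 1.62 (adjusted p = 1.76e-06), and GCH1 by 0.87 (adjusted p = 4.47e-04).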

How the results depend on the processing

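In BE(2)-C, 3 factors were called lower and 1 higher in each of 15 alternatives, and in Hep-G2 2 were called higher in each of 15. Log2 fold changes ran from -0.763 to -0.695 for HAND2, -0.45 to -0.34 for PHOX2A, -0.37 to -0.31 for TBX2 and 1.00 to 1.09 for TFAP2B. Genes called in BE(2)-C numbered 4413 to 6448 over settings and 3431 to 4455 without 1 library, in Hep-G2 7879 to 9431 and 6851 to 9428, and for the difference 5451 to 6600 and 5307 to 7033. Higher genes in BE(2)-C, 2489 in the main fit, numbered 1612, 1523 and 1495 without siI1 replicate 1, 2 and 3. The lowest BE(2)-C counts came without siI1 replicates 2 (3487) and 3 (3431), with fewer samples. With the replicate number as a block, 4672 genes were called in BE(2)-C and 8820 in Hep-G2. Deviations of same-numbered libraries, over all tested genes, correlated at 0.02, -0.01 and -0.003 in BE(2)-C and 0.063, 0.035 and -0.006 in Hep-G2. In both lines siC replicate 1 correlated best with its own number, and replicates 2 and 3 did not. Such values over all genes, many at low levels, cannot exclude that the numbers mark pairs. Median centring raised the share of higher genes among those called from 47.4% to 54.8% in BE(2)-C and from 48.8% to 58% in Hep-G2.

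With a pseudocount of 1, log2 fold changes of low-level genes shrank while their calls were kept: in BE(2)-C to -0.72 for INSM1, 0.57 for LMO3, 0.37 for SIX4 and -0.53 for LMO2, in Hep-G2 to 0.245 for GATA6-AS1, and for the difference to 0.72 for SIX4 and 1.05 for CHGB. With equal sums the difference of TCF3 was -0.23.

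Signs turned for genes or differences that were not called. In BE(2)-C without 1 library, GATA3 ran from -0.01 to 0.045, HSD17B10 from -0.024 to 0.096 and RGL2 from -0.046 to 0.238 (each lowest without siC replicate 3). In Hep-G2, TBX3 was 0.024 with median centring and LDB1 -0.078 with equal sums. The difference between lines was 0.083 for IGF2BP1, 0.119 for SOX9 and 0.024 for SNAI2 with a pseudocount of 1, and 0.17 for IGF2BP1 and 0.174 for SOX9 with equal sums. Without 1 library it ran from -0.056 to 0.064 for IGF2BP1 and from -0.072 to 0.043 for SOX9. The cause was not tested. List counts in BE(2)-C that moved by more than 1.5 times were those of bHLH partners (1 to 3 lower, 0 to 1 higher), GATA partners (1 to 2 higher), mesenchymal factors (1 to 3 higher) and noncoding neighbours (0 to 1 higher). Reads limit the low-level genes most, among them INSM1, LMO2, SIX4 and GATA6-AS1.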

Other observations

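The same lists are given here for Hep-G2, where most core factors were not detected. Of 9 bHLH partners and inhibitors, 8 were tested in Hep-G2, 7 were higher and 0 lower (87.5% called beside 44.8% of all tested genes, median log2 fold change 0.71, all genes 0.01). The ID genes, which encode inhibitors of bHLH dimers, rose: ID1 from 213 to 321 FPKM, ID2 from 75.7 to 135 FPKM and ID3 from 29.3 to 68.7 FPKM (log2 fold change 0.59, 0.83 and 1.23, adjusted p = 0.00242, 5.33e-05 and 9.63e-06). Between 5 and 7 genes of this list were called higher over 15 alternatives, and 1 was called lower without siI1 replicate 1.

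Of 32 mesenchymal-state factors, 22 were tested in Hep-G2, 13 were lower and 4 higher (77.3% called, beside the same 44.8%, median log2 fold change -0.595, all genes 0.01). Of the lower genes, EGR3 and BHLHE41 passed the filter only through their siC libraries, so their calls are not read as changes. The Hippo pathway effector YAP1 fell from 53.2 to 10.0 FPKM and the AP-1 subunit FOSL1 from 17.1 to 3.36 FPKM (log2 fold change -2.41 and -2.33, adjusted p = 2.46e-05 and 3.34e-05). SOX9 fell from 60.2 to 35.4 FPKM (log2 fold change -0.77, adjusted p = 1.25e-04). Among the higher genes, NR3C1 rose from 4.62 to 11.7 FPKM (log2 fold change 1.30, adjusted p = 7.11e-04). ID1 and ID3, also called higher, are counted on the list of bHLH partners too. The count of lower genes ran from 9 to 13 over 15 alternatives. ID1, ID2, YAP1, FOSL1 and NR3C1 were chosen after their values were seen.

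The remaining lists were thinly expressed in Hep-G2, and their counts stand beside the 44.8% of all tested genes called. Of the other adrenergic-state factors 12 were tested, with 6 lower and 1 higher (58.3% called), and of the sympathoadrenal genes 6 were tested, with 1 lower and 2 higher (50% called). The 1 lower call was lost in 9 of 15 alternatives, among them the replicate block and leaving out any 1 siC library. Of the GATA partners and paralogs 4 were tested and 2 were higher (50% called), GATA4 rising from 11.6 ± 0.38 to 17.4 ± 1.3 FPKM (SD, n = 3, log2 fold change 0.58, adjusted p = 6.41e-04). The other, GATA5, passed the filter only through its siI1 libraries, on at most 8 reads, so its call is not read as a change. Of the ISL1 partners 4 were tested and 2 were lower (50% called), and of the TBX2 and TFAP2 paralogs 3 were tested, with 1 lower and 1 higher (66.7% called). These lists share genes with that of the adrenergic-state factors, and the lower call of LMO4 is counted on both that list and the list of ISL1 partners. The count for the ISL1 partners was 0 with median centring and without siC replicate 2 or 3, and 1 with no trend, without siC replicate 1 and without any 1 siI1 library. Both counts for the TBX2 and TFAP2 paralogs were 0 with the filter at 1 FPKM, and that of the GATA partners was 1 with this filter and without siI1 replicate 2 or 3. The hepatocyte markers summed to 8693, 8700.4 and 8630.1 FPKM with siC, against 14435, 16350 and 16549 FPKM with siI1, with albumin (ALB) as the most abundant. Of these 12 markers 8 were called higher and 2 lower (83.3% called), AFP falling from 1563 to 1040 FPKM and TTR from 107 to 63.5 FPKM (log2 fold change -0.59 and -0.77, adjusted p = 0.0029 and 0.00289). AFP and TTR were picked after their values were seen, and their calls were not tested under the alternatives. The part of the hepatocyte markers in the other Hep-G2 values was not tested.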
